A study of Oryza sativa with 11 samples.

Results

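Aquaporins are membrane channels that let water, and in some members small neutral solutes, pass across a membrane. Plants carry several subfamilies. The plasma membrane intrinsic proteins (PIP) sit in the cell membrane, and the tonoplast intrinsic proteins (TIP) mostly in the membrane of the vacuole. The NOD26-like intrinsic proteins (NIP) include channels for silicon and boron. The small basic intrinsic proteins (SIP) are known from Arabidopsis as channels of the endoplasmic reticulum. In roots these channels set much of the ease with which water crosses living cells, and salt in the medium lowers the water potential against which the root draws.

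The members were the rice genes whose RefSeq symbol or a synonym carries a PIP, TIP, NIP, SIP, LSI1 or RWC family name, each read from its brightest probe set among those tied to 1 gene. The names are written with a hyphen, as RefSeq synonyms have them. Of 29 aquaporin genes in the annotation 25 were measured, among 17905 genes with such a probe set. They were 10 of 11 PIP genes, 8 of 9 TIP genes, 5 of 7 NIP genes and 2 of 2 SIP genes. PIP2-3, TIP5-1, NIP1-2 and NIP3-3 had no single-gene probe set and were not analysed here. The pattern also took in 3 measured genes of other families through shared synonyms, among them the heat shock factor gene HSFA2D, and these were set apart.

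Root tips of Oryza sativa, 2 cm long and taken at 30 days, were hybridised to 11 Affymetrix rice arrays. FL478, a salt-tolerant recombinant inbred line, contributed 3 arrays from the control and 3 from salt. IR29, a sensitive cultivar, contributed 2 and 3. For the salt groups, NaCl (to about 60 mM) and CaCl2 were added over 3 days and kept for 5 days, for a conductivity of 7.4 dS/m, where the control medium had 1.1 dS/m. The labels name hydroponic culture and the methods name sand tanks. Replicates are labelled biological, and how the plants were divided among them is not said. The methods take them from control and saline tanks and give no number of tanks. Where arrays of a group share a tank, salt and tank cannot be told apart. All 4 markers of root tissue were measured, with summed signals from 3970 to 7910 units per array. The 5 measured markers of green shoot tissue summed to 288 to 1342 units.

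No aquaporin passed the test in any comparison. The test was limma's moderated test on log2(signal + 32), called at an adjusted p under 0.10 over all 57258 probe sets. In FL478, 0 of 25 members passed where 0.169% of all probe sets did, and in IR29 0 of 25 where 0.00524% did. For the mean of both salt effects the count was 0 against 0.547% of all probe sets. At an unadjusted p under 0.05 there were 2 members in FL478 (8.97% of all probe sets), 1 in IR29 (6.18%) and 2 for the mean effect (10.3%). These shares of calls over all probe sets were low enough that 0 of 25 does not set the family apart.

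For many bright members the intervals of the signal were narrow, but not for PIP2-4, PIP2-5, TIP1-2 and TIP4-1. In IR29 the log2 intervals of these were -2.10 to 1.07, -3.21 to 0.27, -2.74 to 0.21 and -1.24 to 1.97. Each interval rests on the brightest probe set of its gene. Whether signals of the height of the bright members still follow the amount of transcript in proportion was not tested. The median log2 change of the 25 members was 0.10 in FL478 and 0.00 in IR29. The 95% interval of the change lay wholly within 1.5-fold in either direction for 8 members in FL478, 10 in IR29 and 12 for the mean effect. It lay within 2-fold for 17, 16 and 20 members. Fold changes are on the log2(signal + 32) scale, which understates the change of dim probe sets. In whole root tips, fewer cells of a type and less RNA per cell cannot be told apart.

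**Figure D1:**
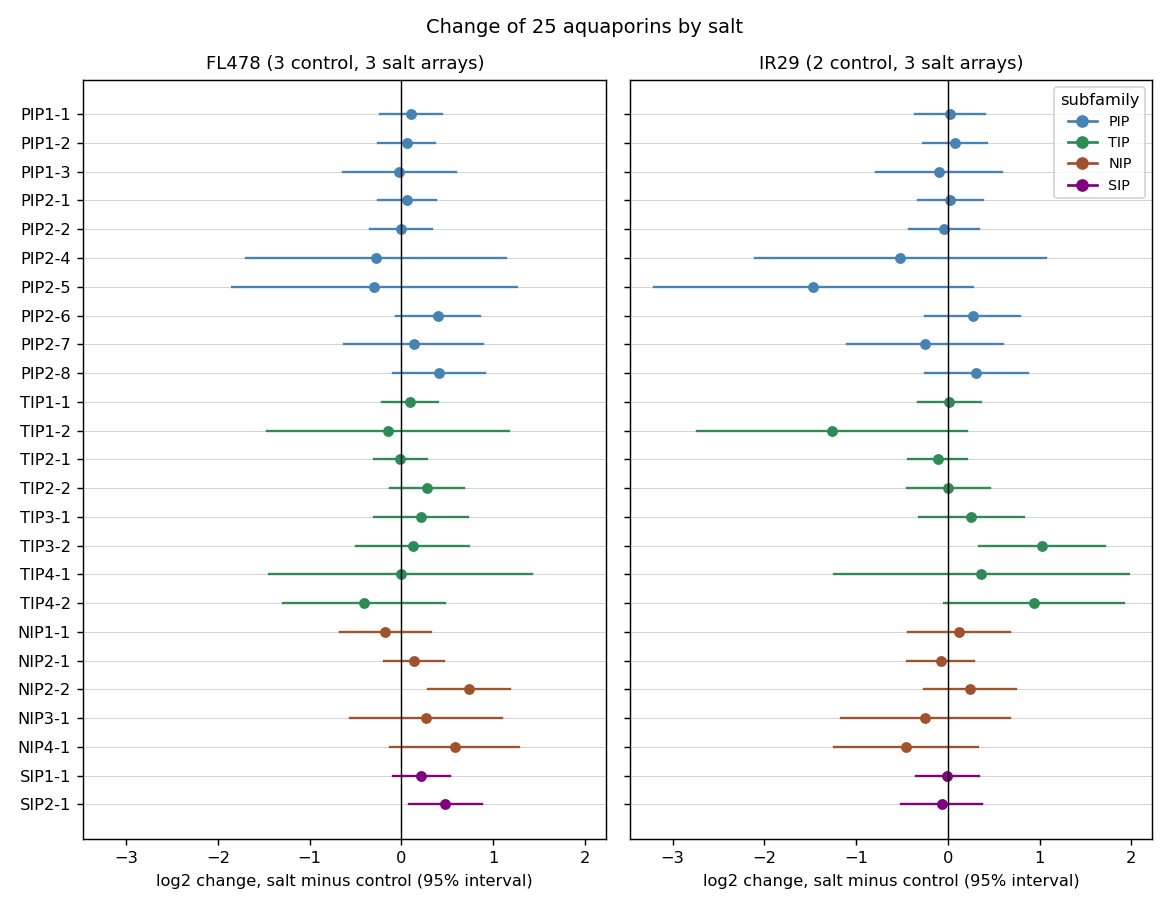
Log2 change by salt (salt minus control, on the log2(signal + 32) scale) of the 25 aquaporins in FL478 and in IR29, with points for the estimate, lines for the 95% interval and colours for the subfamily. Most bright PIP and TIP members have short lines across 0, whereas PIP2-4, PIP2-5, TIP1-2 and TIP4-1 have the long lines of genes that varied within groups.

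Among the PIP genes, 6 of 10 values lay above 0 and 4 below in FL478 (median 0.06), and 5 above and 5 below in IR29 (median -0.01). The PIP1 proteins are known, from maize, to reach the cell membrane with PIP2 partners, and PIP2 proteins are the more active water channels. PIP1-1, PIP1-2, PIP2-1 and PIP2-2 were among the most even members. Their log2 changes ran from -0.01 to 0.10 in FL478 and from -0.04 to 0.08 in IR29. For PIP1-2 the interval was -0.25 to 0.37 in FL478 and -0.27 to 0.43 in IR29, both within 1.5-fold on the scale of the signal.

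PIP2-6 gave 15298, 18022 and 15201 units on the FL478 control arrays and 19276, 21772 and 22954 under salt. The FL478 groups did not overlap, and the log2 change was 0.40 (SE 0.21, adjusted p = 0.62). In IR29 it gave 14536 and 15607 units in the control and 18217, 24211 and 13578 under salt, where 1 salt array fell below both controls (log2 change 0.27, adjusted p = 0.96). PIP2-8, a dimmer gene, gave 120.0, 191.8 and 151.5 units in the FL478 control and 180.2, 197.1 and 269.0 under salt. Those groups overlapped (log2 change 0.41, adjusted p = 0.65). Its IR29 arrays gave 148.6 and 89.2 units in the control and 127.0, 151.1 and 180.8 under salt, a log2 change of 0.31 (adjusted p = 0.95).

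In the RefSeq annotation (assembly ASM3414082v1) PIP2-5 neighbours PIP2-1 on chromosome 7, and a single other gene separates PIP2-5 from PIP2-4. The arrays of PIP2-4 and PIP2-5 scattered far more than those of PIP2-1. PIP2-5 gave 11119, 22955 and 22421 units in the FL478 control and 20956, 7634 and 19389 under salt, so that each group held 1 low array. In IR29 it gave 23844 and 6805 units in the control and 5177, 1730 and 10756 under salt. The control arrays thus lay on either side of the highest salt array. The log2 change was -0.29 in FL478 (adjusted p = 0.95) and -1.47 in IR29 (SE 0.78, adjusted p = 0.87), with an interval of -3.21 to 0.27. Leaving out a single array moved the IR29 value between -2.37 and -0.56, the ends being the fits without IR29 control 2 and without IR29 control 1.

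PIP2-4 gave 6028, 8172 and 20211 units in the FL478 control and 12126, 4661 and 9960 under salt. Its IR29 arrays gave 17413 and 6317 units in the control and 8183, 3415 and 14011 under salt. Groups overlapped in both genotypes, with log2 changes of -0.27 and -0.52 (adjusted p = 0.95 and 0.99). The IR29 value turned to 0.21 without IR29 control 1 and to 0.03 without IR29 salt 2. PIP2-7 was at or near background, with no array above 40.3 units, and its changes say little.

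Among the TIP genes, 4 of 8 values were above 0 in FL478 (median 0.04) and 6 of 8 in IR29 (median 0.14). TIP1-1 and TIP2-1 were the steadiest, with a spread within groups of 0.09 and 0.07 on the log2 scale. TIP1-1 had log2 changes of 0.09 and 0.02 in FL478 and IR29, and TIP2-1 of -0.01 and -0.11. A dimmer probe set of TIP2-1 gave -0.32 and -0.42 (adjusted p = 0.76 and 0.92), so the probe sets of this gene disagreed in size.

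TIP2-2 gave 27314, 31614 and 29427 units in the FL478 control and 33615, 37538 and 35898 under salt, with no overlap. The log2 change was 0.28 (SE 0.18, adjusted p = 0.71). In IR29 its salt arrays, at 28525, 35979 and 22680 units, lay on either side of the controls at 30012 and 26983 (log2 change 0.00).

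TIP1-2 had the lowest value of the subfamily in IR29. It gave 11164 and 4499 units in the IR29 control and 3685, 1906 and 3592 under salt, so the groups did not overlap. The log2 change was -1.26 (SE 0.66, adjusted p = 0.86) and moved between -1.92 and -0.61 when a single array was left out, the ends being the fits without IR29 control 2 and without IR29 control 1. In FL478 the gene gave 4068, 11827 and 12102 units in the control and 10543, 3382 and 12049 under salt, with 1 low array in each group (log2 change -0.15, adjusted p = 0.98).

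TIP3 proteins are known mainly from the storage vacuoles of seeds, and both TIP3 genes were dim here. TIP3-2 gave 14.3 and 42.3 units in the IR29 control and 74.2, 85.5 and 105.5 under salt (log2 change 1.03, SE 0.31, adjusted p = 0.57). In FL478 the arrays gave 88.3, 45.2 and 117.8 units in the control and 117.9, 72.1 and 83.7 under salt (log2 change 0.13). The IR29 controls stood lower than the other groups, and the median signal of all probe sets on an array was 48.8 to 61.3 units.

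TIP4-2 was also dim, and its IR29 control and FL478 salt arrays overlapped. It gave 8.7 and 36.5 units in the IR29 control and 47.8, 92.3 and 72.9 under salt, against 46.0, 69.8 and 138.5 and then 18.7, 54.6 and 100.2 units in FL478. The log2 change was 0.94 in IR29 (adjusted p = 0.83) and -0.41 in FL478 (adjusted p = 0.83). The difference between these responses, IR29 minus FL478, was 1.35 (SE 0.59, unadjusted p = 0.046 in limma, adjusted p = 1.0).

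The NIP genes held the largest value by salt in FL478. NIP2-2, known in rice as the silicon channel Lsi6 of root tips and of the shoot xylem, gave 6267, 7395 and 6843 units in the FL478 control and 8879, 12199 and 13696 under salt. The means were 6835 ± 564 (SD, n = 3) and 11591 ± 2465 (SD, n = 3), and the groups did not overlap. The log2 change was 0.74 (SE 0.20, interval 0.29 to 1.19), or 1.67-fold, at an adjusted p of 0.27 over all probe sets. Leaving out a single array gave 0.61 to 0.92, and the lowest adjusted p in any alternative was 0.11.

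In IR29 NIP2-2 gave 6649 and 6400 units in the control and 6784, 9538 and 7078 under salt. These groups also did not overlap, by a small margin, and the log2 change was 0.24 (SE 0.22, adjusted p = 0.96). The responses of the genotypes differed by -0.50 (IR29 minus FL478, interval -1.17 to 0.17, adjusted p = 1.0). The mean of both salt effects was 0.49 (adjusted p = 0.28).

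NIP2-1 is Lsi1, the channel through which silicon enters rice roots at the exodermis and endodermis. It gave 28784, 32175 and 26203 units in the FL478 control and 30493, 33044 and 31892 under salt. The IR29 arrays gave 31644 and 35533 units in the control and 29693, 35606 and 30285 under salt. Groups overlapped in both genotypes, with log2 changes of 0.13 (interval -0.19 to 0.46) and -0.08 (interval -0.45 to 0.29).

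Lsi2, a silicon efflux transporter that is no aquaporin and works beside Lsi1 in the same root cells, had lower signals under salt. FL478 control arrays had a mean of 17932 ± 261 units (SD, n = 3), against 14225 ± 713 (SD, n = 3) for the salt arrays. The IR29 means were 18140 ± 2872 (SD, n = 2) without salt and 11235 ± 2250 (SD, n = 3) with it. No salt array reached a control array of its genotype. The log2 change was -0.33 in FL478 (adjusted p = 0.62) and -0.70 in IR29 (adjusted p = 0.51), and the mean effect of -0.52 had an adjusted p of 0.18. The other 3 measured markers of the endodermis and exodermis summed to 4201 to 5758 units in the FL478 control and 3577 to 5796 under salt, and in IR29 to 4820 to 5697 and 3700.0 to 4361. The log2 changes were -0.14 and -0.40 for OsCASP1, -0.12 and -0.03 for OsSHR1 and 0.08 and 0.35 for OsSCR1 in FL478 and IR29, and none passed the test. Their part in the values of NIP2-1 and Lsi2 was not tested.

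**Figure D2:**
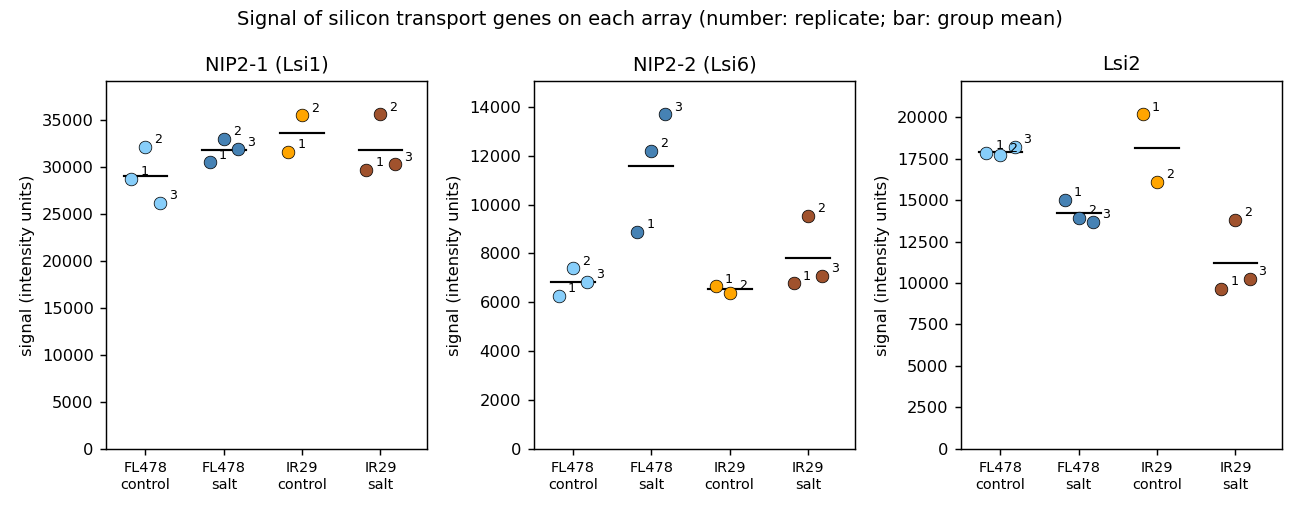
Signal in intensity units of NIP2-1 (Lsi1), NIP2-2 (Lsi6) and the efflux transporter Lsi2 on each array, with points for arrays numbered by replicate and a bar for the group mean. The FL478 salt arrays of NIP2-2 (8879 to 13696 units) sit above its controls (6267 to 7395), those of NIP2-1 overlap its controls, and the salt arrays of Lsi2 sit below the controls in both genotypes.

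The other NIP genes were dim. NIP1-1 gave 84.6, 65.0 and 83.4 units in the FL478 control and 38.8, 97.6 and 67.2 under salt, with overlap (log2 change -0.17, adjusted p = 0.89). Its IR29 arrays gave 101.5 and 83.6 units in the control and 87.4, 98.9 and 125.7 under salt (log2 change 0.12). NIP3-1, a boron channel in rice, and NIP4-1 lay below the median level of all probe sets. NIP4-1 rested on 12.3 to 26.0 units in the FL478 control and 29.3 to 68.5 under salt, values around the offset of 32.

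Both SIP genes had FL478 salt arrays that did not overlap the controls, although neither passed the test. SIP2-1 gave 316.6, 483.4 and 420.5 units in the FL478 control and 598.7, 573.5 and 542.3 under salt (log2 change 0.48, SE 0.18, adjusted p = 0.45). In IR29 it gave 493.6 and 399.6 units in the control and 375.3, 459.1 and 436.7 under salt (log2 change -0.07). SIP1-1 gave 4286, 4497 and 3650 units in the FL478 control and 4734, 4739 and 4936 under salt (log2 change 0.22, adjusted p = 0.71). Its IR29 arrays gave 4315 and 3789 units in the control and 3991, 4145 and 3970 under salt, and the groups overlapped.

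Counted over the family, the salt arrays of FL478 lay wholly above the control for 6 of 25 members and wholly below for 0. Over all probe sets 7.07% lay above and 6.95% below. The 6 were NIP2-2, NIP4-1, PIP2-6, SIP1-1, SIP2-1 and TIP2-2. In IR29 3 members lay above (NIP2-2, TIP3-2 and TIP4-2) and 2 below (TIP1-2 and TIP2-1), where 10.5% and 10.9% of all probe sets did.

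PIP2-4, PIP2-5, TIP1-2 and TIP4-1 varied widely between replicates of a group. The spread within groups was 1.01 on the log2 scale for PIP2-5, 0.93 for TIP4-1, 0.91 for PIP2-4 and 0.85 for TIP1-2. These exceeded 98.7%, 98.2%, 98.1% and 97.3% of the probe sets above the median level, whose median spread was 0.29. PIP1-3, at 0.36, moved with them and is added here. PIP1-3 and TIP4-1 were singled out after their values were seen.

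TIP4-1 ran against the others. It gave 1468, 2390 and 1229 units in the FL478 control and 1576, 3514 and 756 under salt, and in IR29 1344 and 4138 units in the control and 3256, 5830 and 1495 under salt. PIP1-3 gave 37499, 36684 and 41393 units in the FL478 control, 41312, 27511 and 47735 under salt, 40391 and 26146 in the IR29 control and 30176, 22600 and 41125 under salt. FL478 salt 2, IR29 control 2 and IR29 salt 2 were the lowest arrays of their groups for PIP1-3, PIP2-4, PIP2-5 and TIP1-2, and the highest for TIP4-1. FL478 control 2 was likewise the lowest of its group for PIP1-3 and the highest for TIP4-1, whereas PIP2-4, PIP2-5 and TIP1-2 were lowest on FL478 control 1.

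These arrays carry the same replicate number in the labels, which do not say what a number stands for. Of the variation within groups, the number accounted for 89.0% in TIP4-1, 78.8% in PIP1-3, 70.5% in PIP2-4, 52.1% in PIP2-5 and 35.8% in TIP1-2. Fitting the number took the residual degrees of freedom from 7 to 5, so values unrelated to it would also give it a share. These shares were not tested, nor was what the arrays of one number had in common.

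Over the 11 arrays, as deviations from the group means, PIP1-3 and TIP4-1 had a Pearson r of -0.968 and a Spearman rho of -0.945 (exact permutation within groups, p = 0.00231, the smallest that 432 permutations give, and p = 0.00694). The adjusted p over 231 pairs of members was 0.267 for r and 0.344 for rho. Without the 2 farthest arrays r was -0.950, and over the 6 FL478 arrays alone it was -0.938. With the means of the replicate numbers removed as well, r was -0.864 (5 residual degrees of freedom, not tested). The permutations treat arrays of a group as exchangeable and take no account of a shared number, here and in the correlations that follow. No pair of members passed an adjusted p of 0.10. PIP2-5 and TIP1-2 fell into separate clusters of arrays, low on FL478 control 1, FL478 salt 2, IR29 control 2 and IR29 salt 2 and high on the rest, so no pooled r is given for them.

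**Figure D3:**
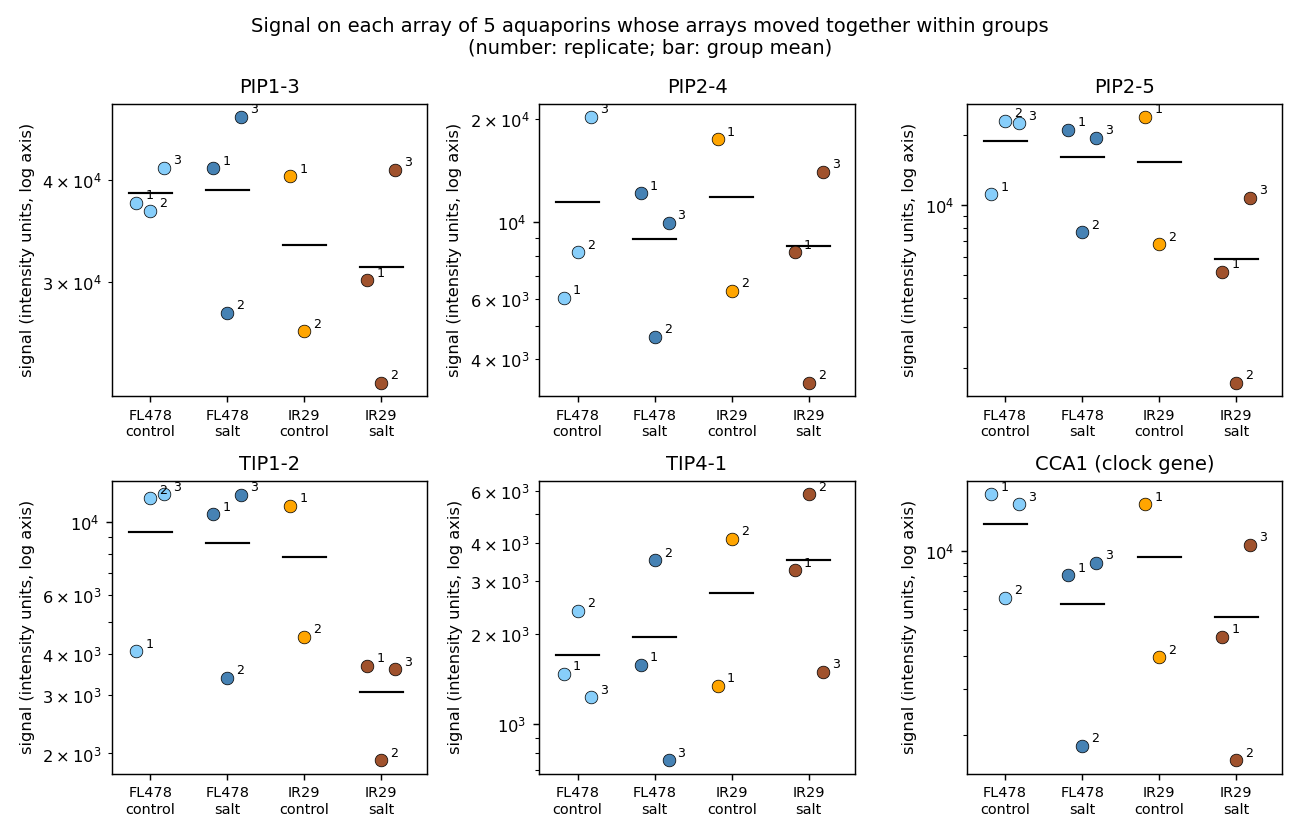
Signal (intensity units, log axis) of PIP1-3, PIP2-4, PIP2-5, TIP1-2, TIP4-1 and the clock gene CCA1 on each array, with points numbered by replicate and a bar for the group mean. FL478 salt 2, IR29 control 2 and IR29 salt 2 are low in the first 4 panels and for CCA1, and high for TIP4-1, and FL478 control 2 is low for PIP1-3 and CCA1 and high for TIP4-1.

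Some other measures of the arrays moved with PIP1-3 and TIP4-1. The root, endodermis and exodermis, and xylem markers, the GAPDH 3' to 5' ratios and the median signal were less close to the 5 members. The adjusted p of their r (exact permutation) was 0.159 or more. The 12 measured markers of dividing cells, summed, had an r of -0.897 with PIP1-3 (rho -0.918, exact permutation p = 0.00926 for both) and 0.925 with TIP4-1 (rho 0.936, p = 0.00694 and 0.00926). Without the 2 farthest arrays these were -0.823 and 0.879, and the adjusted p over 40 pairs was 0.0741 for both. With the means of the replicate numbers removed as well they were -0.691 and 0.742. All 12 single markers had an r below 0 with PIP1-3 and above 0 with TIP4-1. Their sum had an r of -0.816 with PIP2-4, -0.771 with PIP2-5 and -0.634 with TIP1-2 (exact permutation, adjusted p = 0.185, 0.244 and 0.285). The summed dividing-cell markers lay between 12044 and 14338 units in the FL478 control, 13061 and 16823 under salt, 14361 and 18079 in the IR29 control and 12136 and 16157 under salt. Summed, the 5 green shoot markers had an r of 0.857 with PIP1-3 (rho 0.845, exact permutation p = 0.00231 for both). Their r with TIP4-1 was -0.828 (rho -0.8, p = 0.00694 and 0.00926), and the adjusted p over 40 pairs was 0.0741 throughout. With the means of the replicate numbers removed as well, r was 0.476 and -0.277. With PIP2-4, PIP2-5 and TIP1-2 the r of the sum was 0.867, 0.873 and 0.584 (exact permutation, adjusted p = 0.0741, 0.159 and 0.185). Of the 5 single markers 4 had an r above 0 with PIP1-3 and 4 below 0 with TIP4-1. RBCS1, counted among these, was at or near background at 1.7 to 13.5 units, and CAB2R had an r of 0.225 and -0.085. The green shoot markers differed among themselves. On the FL478 control arrays OsPSAG gave 630.5, 155.2 and 729.2 units, where CAB2R gave 97.9, 519.5 and 358.9. The part of these cells or tissues in the aquaporin values was not tested.

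CCA1, a transcription factor of the plant circadian clock that is most abundant around dawn, was looked at after these values were seen. It had an r of 0.954 with PIP1-3 (rho 0.964, exact permutation p = 0.00463 and 0.00926) and -0.953 with TIP4-1 (rho -0.936, p = 0.00463). Without the 2 farthest arrays these were 0.903 and -0.922, and the adjusted p over 30 pairs of clock genes and members was 0.0463 for r and 0.0694 for rho. With the means of the replicate numbers removed as well r was 0.892 and -0.796, and the number accounted for 91.2% of the variation of CCA1 within groups. CCA1 was less close to PIP2-4, PIP2-5 and TIP1-2, with an r of 0.819, 0.818 and 0.622 (exact permutation, adjusted p = 0.139, 0.188 and 0.3125). Without the 2 farthest arrays these r values were 0.691, 0.658 and 0.331. CCA1 gave 16323, 6605 and 14957 units in the FL478 control, 8046, 1826 and 8972 under salt, 14951 and 3945 in the IR29 control and 4701, 1604 and 10503 under salt. The time of day of harvest is not given in the sources used here, and its part was not tested.

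**Figure D4:**
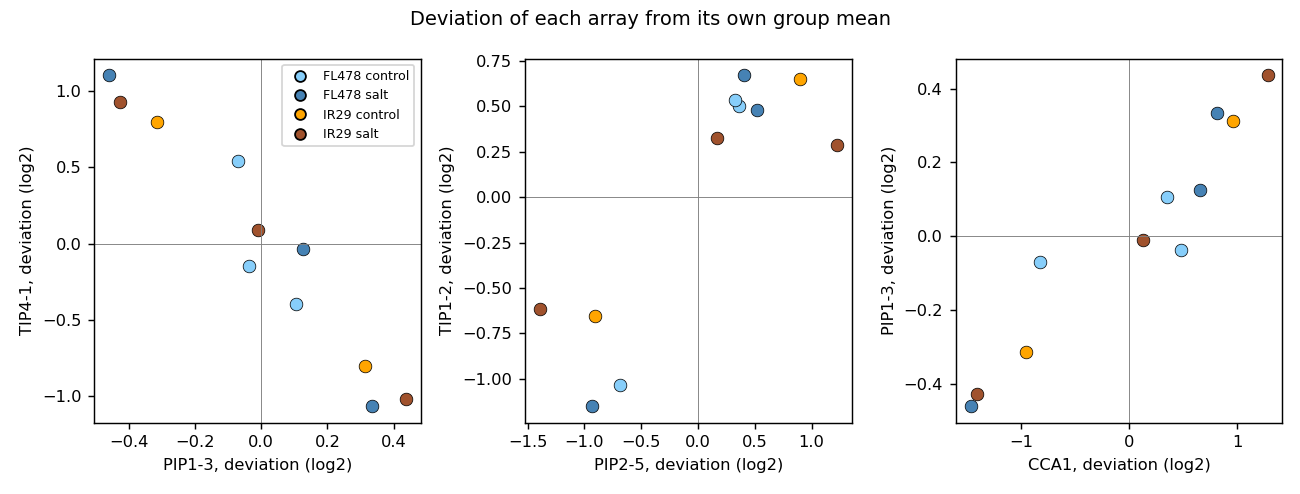
Deviation of each array from its group mean (log2) for TIP4-1 against PIP1-3, TIP1-2 against PIP2-5, and PIP1-3 against the clock gene CCA1, with a point for each of the 11 arrays coloured by group. The outer panels show a falling and a rising line of points (r -0.968 and 0.954), and the middle panel shows 4 low arrays apart from the rest.

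Between the genotypes no aquaporin passed either, in the control (0 of 25, where 0.597% of all probe sets passed) or under salt (0 of 25, where 1.75% passed). The genotypes' responses to salt also differed for 0 members (0.0% of all probe sets). At an unadjusted p under 0.05 there were 2 members in the control (7.92% of all probe sets), 5 under salt (11.2%) and 1 for the difference in response (4.53%).

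In the control 8 of 10 PIP values, FL478 minus IR29, lay above 0 (median 0.10), where 48.9% of all probe sets did. Under salt all 10 lay above 0, with a median of 0.18, where 48.8% of all probe sets did. The 10 genes were read on the same arrays, so their values are not independent, and PIP2-7, at 0.00, was near background. For 8 of them the interval lay within 2-fold. PIP2-5 had the largest difference at 1.66 (SE 0.70, interval 0.10 to 3.22, adjusted p = 0.40), and the lowest FL478 array overlapped the highest IR29 array. In the control its difference was 0.49 and turned to -0.41 without IR29 control 2. TIP1-2 differed by 1.35 under salt (adjusted p = 0.43), again with overlap, and TIP4-1 by -0.90 (adjusted p = 0.68). FL478 was the lower for TIP4-1 on salt arrays of each replicate number, by log2 differences of -1.03, -0.73 and -0.95, and with the number as a block the adjusted p was 0.215. It was the higher on each number for PIP2-5 (0.85 to 2.12), TIP1-2 (0.82 to 1.74), PIP1-3 (0.21 to 0.45) and NIP2-2 (0.35 to 0.95). With the number as a block in limma, their adjusted p was 0.264, 0.353, 0.545 and 0.262. For PIP2-4 the signs were mixed (0.57, 0.44 and -0.49).

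In the control TIP3-2 and TIP4-2 were higher in FL478 on all arrays, by 0.93 (SE 0.31, adjusted p = 0.40) and 1.07 (SE 0.44, adjusted p = 0.57), at the low signals given above. Under salt the differences were 0.02 and -0.28. NIP2-1 differed by -0.21 in the control (interval -0.58 to 0.16) and 0.00 under salt. NIP2-2 was level between the genotypes in the control (0.06) and differed by 0.56 under salt (SE 0.20, adjusted p = 0.30), with FL478 salt 1 below IR29 salt 2. Arrays of FL478 lay wholly above those of IR29 for 3 members in the control and 4 under salt, where 11.3% and 7.86% of all probe sets did. They lay wholly below for 0 members in both, where 12.5% and 7.71% did.

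**Figure D5:**
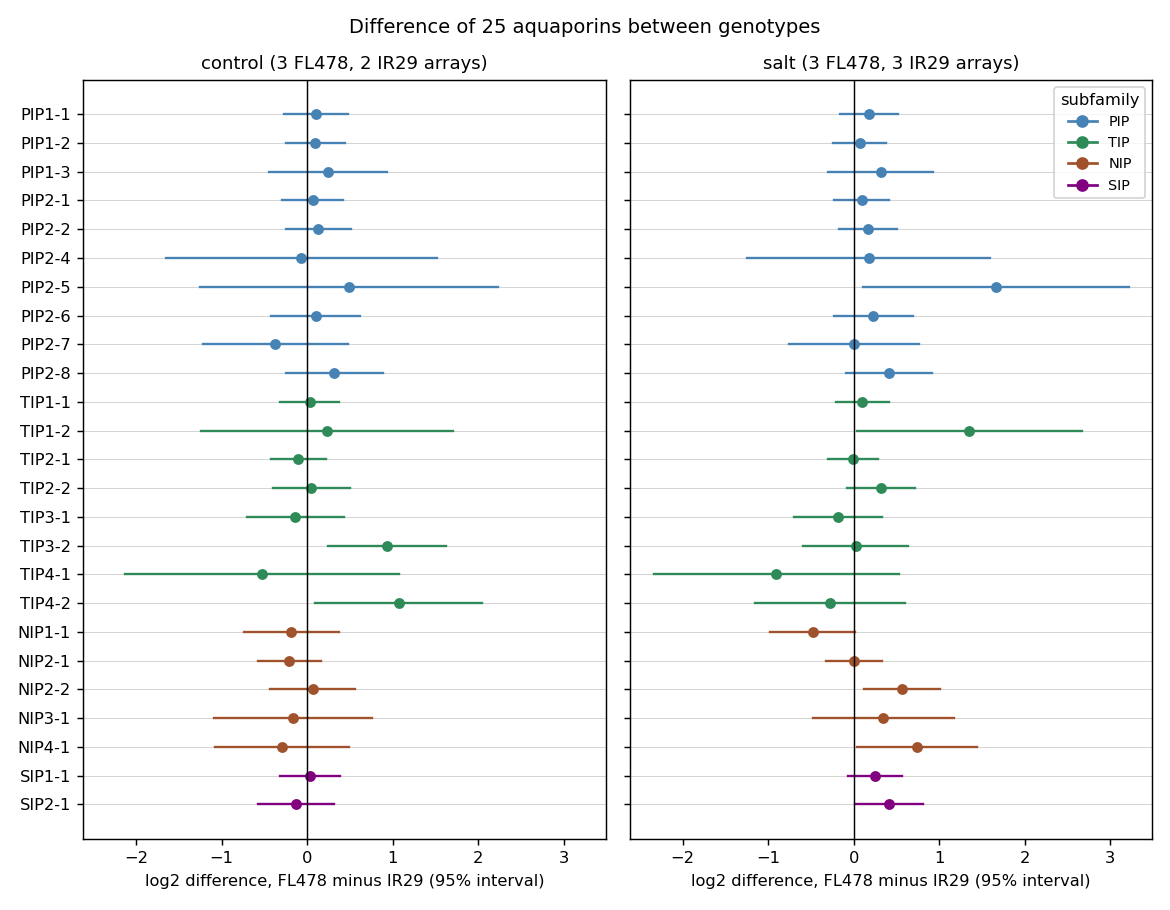
Log2 difference between genotypes (FL478 minus IR29) of the 25 aquaporins in the control and under salt, with points for the estimate, lines for the 95% interval and colours for the subfamily. Under salt the 10 PIP points lie at or right of 0, most of them close to it, and PIP2-5 (1.66) and TIP1-2 (1.35) lie farthest right with long lines.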

How the data were processed

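The authors deposited linear signal intensities from GCOS, for which no version is given, with the same 2% trimmed mean on each array. The RMA values that the study tested by two-class SAM were not used here, and no detection calls were used. An offset of 32 was added and log2 taken of the deposited values, with no further normalization. All 11 arrays were fitted in limma 3.58.1 (R 4.3.3) with 1 mean per group, leaving out 123 control probe sets, and p-values were adjusted by Benjamini-Hochberg over 57258 probe sets. The fit was run on simulated arrays with known changes and independent noise, as a check of the code. The share of changes of a given size that the real arrays would detect is not given. Tables and figures were made with Python 3.11.15, pandas 2.3.3, numpy 2.4.6, scipy 1.17.1 and matplotlib 3.10.9.

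Signals under 32 units made up 36.6% to 41.9% of an array, so dim members are measured poorly, and the number of arrays limits the precision. Probe sets with the suffix _x_at, _s_at or _a_at may share probes with related transcripts. This applies to PIP2-1, PIP2-2, PIP2-7, NIP2-2, TIP1-1, TIP2-1, TIP2-2, TIP3-1, TIP4-2 and SIP1-1. Signals of different probe sets were not compared as amounts of transcript. Of the 5 aquaporins with more than 1 probe set, a dimmer probe set is given for TIP2-1 only, and not for PIP2-1, PIP2-2, TIP1-1 and TIP4-1.

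Given in full were, in each subfamily, the 2 members above the median level with the largest changes by salt in each genotype, the 1 with the largest difference between genotypes in the control, and NIP2-1. The members and lists were chosen with earlier results of these data known. A list of plasma membrane H+-ATPases matched no symbol. The vacuolar proton pump list held 1 gene, VATP-P1, whose change on the log2 scale was -0.24 (FL478) and -0.31 (IR29, adjusted p = 0.66 and 0.84). The xylem markers summed to 9096 to 18093 units. Alternatives were other offsets, a floor, quantile normalization, a level filter, an intensity trend with robust variance, a stricter threshold, a GAPDH 3' to 5' ratio as covariate, the mean of a gene's probe sets, SAM, arrays of a single genotype, the replicate number as a block, and leaving out each array. A second GAPDH pair was added after the data were seen.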

Additional observations from a re-analysis of the deposited data

How the results depend on the processing

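The count of aquaporins called was 0 in each of 136 alternatives over the 6 comparisons, SAM included, and the smallest adjusted p of a member was 0.111. SAM on the deposited signals called few probe sets of any kind, 30 for salt in FL478 and 1 for salt in IR29. From RMA values the study's own SAM listed many more for either genotype, and which of those are aquaporins is not given here. The counts of 0 thus hold for the deposited signals only. Of 480 alternatives to 22 log2 changes of the members given in full, 465 kept the direction. With the GAPDH covariate the change of PIP2-4 in IR29 was 0.0605 and that of NIP1-1 in FL478 0.16. Leaving out a single array gave ranges across 0 for PIP2-5 between genotypes in the control (-0.41 to 1.39), PIP2-4 in IR29 (-1.25 to 0.21), NIP1-1 in FL478 (-0.38 to 0.0531), NIP2-1 in IR29 (-0.16 to 0.0050), SIP2-1 in IR29 (-0.21 to 0.0739), SIP2-1 between genotypes in the control (-0.28 to 0.01998) and SIP1-1 in IR29 (-0.0964 to 0.0900). The cause was not tested. Replicate numbers are shared by the labels and were not taken to pair the arrays in the main fit. Over all probe sets the correlations of same-numbered deviations were 0.177, 0.0721 and 0.110 in FL478. Those of unlike number were lower there, at -0.134 to 0.0114. In IR29 the same-numbered values were -0.0717 and 0.0509, and those of unlike number -0.120 to 0.120. The 2 IR29 control deviations are equal and opposite for each probe set, so the IR29 values mirror each other and say little. With the replicate number as a block 0 aquaporins were called in each comparison, SIP1-1 in IR29 was 0.0234, and the count over all probe sets was 127 in FL478 (97 without) and 0 in IR29 (3 without). TIP4-1 and PIP1-3 were mostly alike on same-numbered arrays, where the number accounted for 89.0% and 78.8% of their variation within groups. For TIP1-2 it accounted for 35.8%. With replicate number means removed from the deviations, an alternative added after the data were seen, the r of PIP1-3 and TIP4-1 was -0.864 and that of OsPRR1 and TIP4-1 turned from 0.809 to -0.120.

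Over all probe sets the calls moved more. They were 97 in FL478 (0 to 256 in other settings, 1 to 86 without a single array), 3 in IR29 (0 to 80, 0 to 49), 313 for the mean effect (0 to 653, 9 to 232), 0 for the difference in response (0 to 41, 0 to 18), 342 between genotypes in the control (198 to 445, 86 to 527) and 1000 under salt (493 to 1418, 432 to 1375). With the planned GAPDH ratio as covariate, 0 probe sets were called in FL478, in IR29 and for the mean effect. That log2 ratio was higher on each salt array than on the controls of its genotype. It was 0.65 to 0.92 against 0.51 to 0.62 in FL478 and 0.71 to 1.03 against 0.65 to 0.66 in IR29. Ratio and salt cannot be fully told apart in this fit, and the part of RNA quality was not tested. The GAPDH pair added later gave 1, 1 and 112 calls. With 2 IR29 control arrays, a change of PIP2-5 or TIP1-2 well beyond 2-fold lay inside its interval, so these values set no bound, and for bright members the intervals concern the signal and not the transcript.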

Other observations

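Of 6 clock genes measured, CCA1 had the widest spread within groups, at 1.18 on the log2 scale. OsPRR1 had an r of 0.809 with TIP4-1 (rho 0.827, exact permutation p = 0.00463 for both, adjusted p = 0.0463 for r and 0.0694 for rho over 30 pairs, 0.912 without the 2 farthest arrays), the opposite sign to CCA1. With the means of the replicate numbers removed as well its r was -0.120. GI had an r of 0.762 with TIP4-1 (rho 0.755, exact permutation p = 0.0116 and 0.00694, adjusted p = 0.0868 and 0.0694, 0.722 without the 2 farthest arrays, and 0.090 with the number means removed). With PIP1-3 the r was -0.661 for OsPRR1 and -0.577 for GI (exact permutation, adjusted p = 0.139 and 0.3125). OsPRR37, OsPRR73 and OsPRR95 followed these members less closely. Their r was -0.330, -0.166 and 0.136 with PIP1-3 and 0.524, 0.355 and 0.0875 with TIP4-1. The adjusted p of these r values (exact permutation, over 30 pairs) was 0.544 or more. The clock genes were chosen after the aquaporin values were seen.

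HSFA2D, a heat shock factor gene that the pattern took in through the synonym SIP2A, gave a mean of 25057 ± 1820 units (SD, n = 3) in the FL478 control and 14100 ± 3582 (SD, n = 3) under salt. The arrays did not overlap, and the log2 change was -0.85 (adjusted p = 0.24 in limma). In IR29 the change was -0.22 (adjusted p = 0.97), and IR29 minus FL478 was 0.63 (interval -0.10 to 1.36, adjusted p = 1.0).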
